A study of Danio rerio with 9 samples.

Results

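Gene expression in the heads of zebrafish larvae that received gut metabolites (ZM) was compared with that of conventionally raised (CV) and germ-free (GF) larvae together, to find the genes that stood away from both in the treated heads. All genes with a mean of at least 1 FPKM over the 9 samples were included, which gave 15904 of the 32520 genes in the table. FPKM is a fragment count scaled to the length of the transcript and to the number of mapped fragments, so levels can be compared between genes. At this limit, rprd2b (ENSDARG00000074676), with a mean of 1.0004 FPKM, was included and ENSDARG00000092671, with a mean of 0.9997 FPKM, was not.

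Each group held 3 samples, and every sample was RNA of 5 pooled heads of the Tubingen strain at the long-pec stage, 2 days post-fertilization (dpf), cut off where the hindbrain ends. CV embryos were left with the microbes of their water. GF embryos were immersed in gentamicin and washed in hypochlorite at the shield stage to 60% epiboly, and ZM embryos were GF embryos that then received a filter-sterilised saline extract of the intestines of pooled adult male zebrafish. ZM and GF therefore share the antibiotic and the sterilisation, which CV lacks, and none of these groups received saline alone, so the metabolites and their saline cannot be told apart. The extract came from whole intestines, so products of the fish and of its bacteria cannot be told apart either.

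At this stage the fish brain and eye still hold many dividing progenitors beside neurons that have left the cell cycle. Before S phase, a dividing cell loads the origin recognition complex and the MCM helicase on its chromosomes. In S phase it fires the origins, copies the DNA with polymerases held by the PCNA clamp, and supplies the nucleotides and histones that the new DNA needs. Genes for these steps are switched on together by E2F factors as a cell leaves G1. Growing cells also build ribosomes in the nucleolus. Neurons, photoreceptors and lens fibres leave the cycle and then make synaptic proteins, visual proteins and crystallins.

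In the ZM heads, genes of DNA replication, nucleotide and histone supply and ribosome assembly had higher values, as list medians, than in CV and in GF. These lists were drawn up after the values had been seen. In the histone and ribosome assembly lists, the median of ZM 3 was below that of a CV sample. Genes of the synapse had lower values in ZM, with ZM 3 among the other samples. Lens genes were lower mainly against GF, with a list median of -0.71, and one of -0.16 against CV. No gene passed the adjusted test. The largest difference of all genes tested was that of CYP1A1, a detoxifying enzyme, whose values in 1 ZM sample and 1 CV sample were nearly equal. On log2(FPKM + 1), with limma and Benjamini-Hochberg adjustment over all 15904 genes, 0 genes were higher (0.0%) and 0 were lower (0.0%) in ZM than in the mean of CV and GF at an adjusted p under 0.05. The smallest adjusted p from limma was 0.547. At a nominal p under 0.05, that is the limma p before adjustment, 714 genes (4.49%) had higher and 702 (4.41%) lower values. The 714 became 1203 without CV 2 (replicate 2 of CV), 375 without ZM 1 and 298 without ZM 2, and the 702 became 1216 without CV 1, 1606 without CV 2, 316 without GF 1, 174 without ZM 1, 195 without ZM 2 and 1330 without ZM 3. Without regard to p, 41.4% of all genes had a higher mean in ZM, which is the background for the counts of higher means in gene lists, as 4.49% and 4.41% are for counts at the nominal p. Single genes and lists are therefore described by their values, and no gene named here passed the adjusted test in this contrast. On this scale, differences of genes with low FPKM are understated.

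The values of the samples were also compared directly. The 3 ZM samples were all higher than the 6 CV and GF samples in 446 genes (2.8%) and all lower in 138 genes (0.868%). The same count for the other groups gave 1368 genes (8.6%) above and 536 (3.37%) below for CV, and 312 (1.96%) above and 907 (5.7%) below for GF. The 3 groups share all samples in these counts. ZM therefore had the smallest number of genes outside the other 6 samples, 584 (3.67%) in either direction. Against CV alone, 1103 genes (6.94%) were higher and 2618 (16.5%) lower in ZM at a nominal p under 0.05, and against GF alone 406 (2.55%) were higher and 502 (3.16%) lower, with 0 in each direction at an adjusted p under 0.05 from limma. Same-numbered ZM and GF samples deviated together, and with the replicate number as a block in the ZM and GF samples alone, an alternative chosen after seeing the data, the 406 and 502 became 1538 and 1176. Without the block these 6 samples gave 993 and 667, with 0 genes in each direction at an adjusted p under 0.05 from limma. With the block in these 6 samples, CYP1A1 and ZBTB18 were higher in ZM than in GF at that adjusted p, and 0 genes were lower. At that nominal p in both comparisons, which share the ZM samples, 195 genes (1.23%) were higher and 76 (0.478%) lower. Of these, 161 (1.01% of all genes) also had all ZM samples above the other 6, and 39 (0.245%) below them. The 446, 138, 195 and 76 moved with single samples. The 446 became 691 without ZM 1 and 1289 without ZM 3, and the 138 became 215 without ZM 1, 420 without CV 1, 478 without GF 3 and 1535 without ZM 3. The 195 became 408 without ZM 3, 89 without ZM 1, 76 without ZM 2, 115 without GF 1, 79 without GF 2 and 124 without GF 3. The 76 became 419 without ZM 3, 20 without ZM 1, 31 without ZM 2, 167 without CV 1, 50 without CV 2 and 30 without GF 1.

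The genes that lay above had higher levels than most, and those that lay below had lower levels. The median level in CV and GF was 21.0 FPKM for the 446 genes and 3.82 FPKM for the 138 genes, against 6.31 FPKM over all genes tested. At a minimum of 5 FPKM, 409 of 8890 genes lay above and 57 below. The share above is thus larger among genes with higher levels. The shares over all genes given beside the lists below were not matched for level. The median log2 difference was 0.34 for the 446 genes and -0.41 for the 138 genes, against -0.05 over all genes tested and a median standard error of 0.17. A log2 difference of at least 1 was reached by 1 of the genes above and a difference of -1 or lower by 2 of the genes below. ZM 3 was the ZM sample nearest to the other 6 for 251 of the genes above and 97 of the genes below.

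How the samples were scaled decided how many genes counted as higher. Higher genes made up 50.4% of those at a nominal p under 0.05. This share was 63.1% with median-of-ratios rescaling, 60.4% with quantile normalization and 30% with the same FPKM sum in every sample. The median difference of all genes then moved from -0.05 to 0.00, 0.01 and -0.12, respectively. The medians of the replication, nucleotide, histone, ribosome assembly, neuron and lens lists kept their sign under all of these scalings.

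Part of the DNA replication genes had all ZM samples above the other 6. The replication list was put together after the values had been seen, and its counts are a description. Its share of such genes can therefore not be ranked against other lists. The lists of nucleotide supply, histone supply and S phase genes, described below, were made in the same way (36.8%, 36.4% and 34.8%). The proteasome and cell cycle lists, which were not, had shares of 24.0% and 21.1%. Of 56 genes of the replication machinery, 53 had a higher mean in ZM, 33 at a nominal p under 0.05 from limma, and 0 were lower at that p. All 3 ZM samples lay above the other 6 for 19 of them (33.9%), against 2.8% of all genes. Its list median, as a log2 difference, was 0.38, and it was 0.43 against CV and 0.44 against GF. The medians of the list, relative to the mean of the 3 groups on the log2 scale, were 0.48, 0.30 and 0.05 in ZM 1, 2 and 3, and none of the CV and GF samples was above -0.02. ZM 3 thus lay only just above the others. The 33 genes became 21 without ZM 1 and 21 without ZM 2.

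Of the genes that license origins, ORC1 (ENSDARG00000039217), the largest subunit of the origin recognition complex, had 9.38, 7.03 and 3.53 FPKM in ZM 1, 2 and 3. CV samples had 3.35, 3.0 and 3.13 FPKM and GF samples 2.91, 2.79 and 2.77 FPKM. ZM 1 and ZM 2 were far above all others and ZM 3 was just above CV 1. The log2 difference was 0.86 (SE 0.23, limma adjusted p = 0.547). ORC6 (ENSDARG00000075682), the smallest subunit, had 9.86, 9.79 and 7.68 FPKM in ZM and between 4.63 and 6.6 FPKM in the other 6 samples. Here ZM 3 stood apart as well. ORC4 (ENSDARG00000101161), another subunit of the complex, had 37.9, 30.0 and 28.4 FPKM in ZM and between 19.4 and 24.3 FPKM elsewhere. Geminin, the inhibitor that stops origins from being licensed again (GMNN, ENSDARG00000035957), had 23.5, 20.0 and 16.4 FPKM in ZM and between 10.6 and 14.9 FPKM elsewhere. MCM5 (ENSDARG00000019507), a subunit of the helicase, had 134, 94.6 and 82.1 FPKM in ZM, and the highest other sample, CV 2, had 80.5 FPKM.

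At the replication fork, the clamp PCNA (ENSDARG00000054155) was the most strongly expressed of these genes. It had 854, 690 and 525 FPKM in ZM 1, 2 and 3, against 415, 467 and 362 FPKM in CV and 490, 428 and 433 FPKM in GF. The 3 ZM samples lay above all others, and they differed more among themselves (SD 164) than the CV (SD 52.2) or GF samples (SD 34.3). ZM differed from the others by a log2 value of 0.65 (SE 0.15, limma adjusted p = 0.547). RFC4 (ENSDARG00000042458), a subunit of the complex that loads this clamp, had 83.2, 74.0 and 64.4 FPKM in ZM and between 48.6 and 59.8 FPKM elsewhere. RPA3 (ENSDARG00000002613), a subunit of the protein that coats single-stranded DNA, had 69.8, 70.9 and 53.8 FPKM in ZM and between 32.0 and 45.4 FPKM elsewhere. RNASEH2B (ENSDARG00000005128), a subunit of the enzyme that removes ribonucleotides from DNA, had 53.5, 53.7 and 44.0 FPKM in ZM and between 27.4 and 37.7 FPKM elsewhere. LIG1 (ENSDARG00000060041) and FEN1 (ENSDARG00000011404), which finish the lagging strand, were chosen here for their role after their values were seen. LIG1 had 70.6, 64.3 and 54.5 FPKM in ZM and at most 53 FPKM elsewhere. FEN1 had 94.2, 79.3 and 60.0 FPKM in ZM, and the value of ZM 3 was below the 60.7 FPKM of CV 2.

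**Figure D1:**
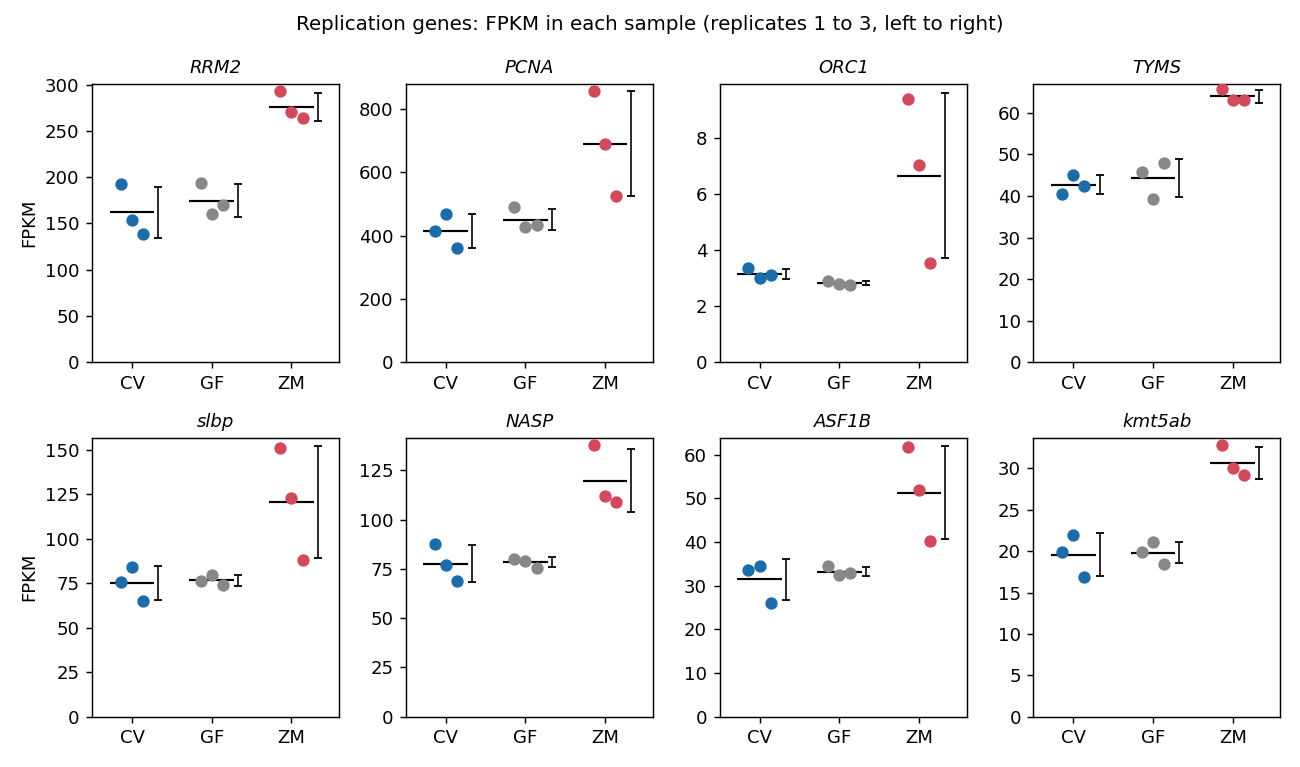
FPKM (vertical axes, starting at 0) of 8 genes of DNA replication, nucleotide supply and histone supply in the CV, GF and ZM samples. Points are samples in the order of their replicate numbers, horizontal lines are group means and bars beside them are ± 1 SD (n = 3). In each panel the 3 ZM points lie above the 6 others, and for ORC1 the ZM 3 point, at 3.53 FPKM, is close to the highest CV point, at 3.35 FPKM.

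The enzymes that make DNA precursors had the same pattern, with list medians of 0.38, 0.26 and 0.04 in ZM 1, 2 and 3 and at most 0.0 in the other samples. Of 19 genes tested in this list, which was also drawn up after the values had been seen, 16 had a higher mean in ZM, 10 at a nominal p under 0.05 from limma, and 0 were lower at that p. All 3 ZM samples lay above the other 6 for 7 (36.8%, against 2.8% of all genes). As a log2 difference, the list median was 0.34. The 10 genes became 5 without ZM 1 and 6 without ZM 2.

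RRM2 (ENSDARG00000020711), the small subunit of ribonucleotide reductase, which limits the supply of deoxynucleotides, had the smallest nominal p of the genes named here. Its values were 293, 270 and 264 FPKM in ZM, 193, 154 and 139 FPKM in CV and 194, 160 and 170 FPKM in GF. The means were 276 ± 15.0 (SD, n = 3) in ZM, 162 ± 28.0 in CV and 175 ± 17.6 in GF. The lowest ZM sample was well above the highest of the others. On the log2 scale the difference was 0.72 (SE 0.12, limma adjusted p = 0.547). Another gene with the name RRM2 (ENSDARG00000078069) had 114, 104 and 71.0 FPKM in ZM and between 62.6 and 89.5 FPKM elsewhere. Its ZM 3 sample lay within the range of the others. Reads of such near copies may have been split between them.

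Thymidylate synthase (TYMS, ENSDARG00000042894), which makes the thymidine nucleotide, had 65.7, 63.0 and 63.2 FPKM in ZM and between 39.2 and 48.0 FPKM elsewhere. The ZM samples were nearly equal, and the log2 difference was 0.55 (SE 0.10, limma adjusted p = 0.547). Thymidylate kinase (DTYMK, ENSDARG00000052103), the next enzyme of this path, had 26, 25.9 and 33.1 FPKM in ZM and between 17.2 and 23.5 FPKM elsewhere, and here ZM 3 was the highest sample. Dihydrofolate reductase (dhfr, ENSDARG00000004251), which regenerates the folate that TYMS uses, had 24.5, 21.2 and 18.7 FPKM in ZM and at most 17.4 FPKM elsewhere. The pyrimidine enzymes CTPS1 (ENSDARG00000030700) and UMPS (ENSDARG00000012215) lay above in the same way, each with ZM 3 lowest of the ZM samples. CTPS1 had 33.3 FPKM in ZM 3 and 32.9 FPKM in CV 2, the highest of the others. UMPS had 18.2 FPKM in ZM 3 and 18 FPKM in CV 2.

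Histones for new DNA are made and carried to it in S phase, and several genes of this supply stood apart. Of 22 genes tested in a list drawn up after the values had been seen, 16 had a higher mean in ZM, 8 at a nominal p under 0.05 from limma, and 0 were lower at that p. All 3 ZM samples lay above the other 6 for 8 (36.4%, against 2.8% of all genes). On the log2 scale the list median difference was 0.23. The 8 genes became 5 without ZM 1.

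The histone mRNA stem-loop binding protein (slbp, ENSDARG00000100558), which lets histone mRNA be processed and translated, had 151, 123 and 88.1 FPKM in ZM, 75.8, 84 and 64.9 FPKM in CV and 76.2, 79.8 and 73.7 FPKM in GF. ZM 1 was highest and ZM 3 was just above CV 2. The log2 difference was 0.64 (SE 0.16, limma adjusted p = 0.547). The histone chaperone NASP (ENSDARG00000039208) had 138, 112 and 109 FPKM in ZM and between 68.7 and 87.7 FPKM elsewhere. The chaperone ASF1B (ENSDARG00000101037), which hands histones H3 and H4 to the fork, had 61.7, 52.0 and 40.3 FPKM in ZM and between 26.1 and 34.6 FPKM elsewhere. The histone H4 lysine methyltransferase kmt5ab (ENSDARG00000104114) had 32.9, 30.0 and 29.2 FPKM in ZM and between 16.9 and 22.0 FPKM elsewhere. Unlike slbp, kmt5ab and NASP had a ZM 3 value near that of ZM 2. The chaperones DNAJC9 (ENSDARG00000031293) and SSRP1 (ENSDARG00000037397, a subunit of the FACT complex) had log2 differences of 0.54 and 0.45, and the chromatin remodeler HELLS (ENSDARG00000057738), which acts in DNA methylation, one of 0.51.

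Regulators of the cell cycle and of mitosis had higher means too, in a list that shares PCNA, RRM2, TYMS, GMNN and MCM5 with those above. The cell cycle list held 57 genes tested, of which 46 had a higher mean in ZM, 26 at a nominal p under 0.05 from limma, and 0 were lower at that p. All 3 ZM samples lay above the other 6 for 12 (21.1%, against 2.8% of all genes). When this list was divided after the values had been seen, the 23 S phase genes had a median log2 difference of 0.35, with 8 genes (34.8%) above, and the 34 genes of G2 and mitosis one of 0.24, with 4 genes (11.8%) above. The difference between these medians was not tested. The 26 genes became 8 without ZM 1, 11 without ZM 2 and 16 with the same FPKM sum in every sample. The medians of the whole cell cycle list were 0.38, 0.23 and 0.0 in ZM 1, 2 and 3, and CV 1, at 0.01, lay above ZM 3. The spindle checkpoint gene MAD2L1 (ENSDARG00000004713) had 98.7, 112 and 82.7 FPKM in ZM and between 55.7 and 75.4 FPKM elsewhere. The mitotic cyclin CCNB1 (ENSDARG00000051923) had 108, 102 and 86.8 FPKM in ZM, and the value of ZM 3 was almost that of CV 1, at 86.8 FPKM after rounding. The kinase CDK2 (ENSDARG00000026577), which drives S phase, had 51.1, 42.5 and 35.1 FPKM in ZM and at most 34.3 FPKM elsewhere. The microtubule end-binding gene MAPRE1 (ENSDARG00000042927), which belongs to none of the lists, had another order, with 13.2, 27.7 and 21.5 FPKM in ZM and between 8.74 and 12.4 FPKM elsewhere, so that ZM 1 was the sample nearest to the others.

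Genes that assemble ribosomes in the nucleolus were higher over most of their list. Of 64 genes tested, in a list drawn up after the values had been seen, 61 had a higher mean in ZM, 34 at a nominal p under 0.05 from limma, and 0 were lower at that p. All 3 ZM samples lay above the other 6 for 13 (20.3%, against 2.8% of all genes). Over the list, the median log2 difference was 0.33. The medians of this list were 0.37, 0.24 and 0.02 in ZM 1, 2 and 3, and CV 2, at 0.08, lay above ZM 3. The 34 genes became 10 without ZM 1 and 14 without ZM 2. MPHOSPH10 (ENSDARG00000012495), a part of the complex that processes the small subunit RNA, had 26.2, 22.3 and 24.8 FPKM in ZM and between 14.5 and 19.8 FPKM elsewhere. MRTO4 (ENSDARG00000007130), an assembly factor of the large subunit, had 44.9, 41.6 and 32.9 FPKM in ZM and between 21.6 and 32.2 FPKM elsewhere. EBNA1BP2 (ENSDARG00000054980), which acts in the same subunit, had 15.9, 16 and 13.6 FPKM in ZM and at most 11.7 FPKM elsewhere. Nucleophosmin (npm1a, ENSDARG00000014329), an abundant nucleolar protein named here after its values were seen, had 169, 154 and 110 FPKM in ZM and up to 116 FPKM in CV 2, which lay above ZM 3.

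The ribosomal proteins themselves had higher means without standing apart. Of 81 genes for cytosolic ribosomal proteins, 79 had a higher mean in ZM, 30 at a nominal p under 0.05 from limma, and 0 were lower at that p. Only RPL31 (ENSDARG00000053365), 1.23% of the list against 2.8% of all genes, had all 3 ZM samples above the other 6. Its values were 1620, 1610 and 1360 FPKM in ZM and between 899 and 1310 FPKM elsewhere. The median log2 difference of the list was 0.28, at 0.44 against CV and 0.10 against GF. After quantile normalization it was 0.11. ZM 3, with a list median of -0.03, lay below GF 2 (0.08) and GF 3 (0.16). The 30 genes became 2 without ZM 1, 2 without ZM 2, 12 without GF 1, 17 without GF 2 and 53 without ZM 3. They became 17 after median-of-ratios rescaling, 17 after quantile normalization, 13 with CV and GF as 1 group of 6 and 16 when all genes above 0 were included.

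Proteasome genes had smaller differences, of which several held in all 3 ZM samples. Of 50 genes tested, 40 had a higher mean in ZM, 14 at a nominal p under 0.05 from limma and 0 were lower at that p, and all 3 ZM samples lay above the other 6 for 12 (24.0%, against 2.8% of all genes). The median log2 difference was only 0.17. At a nominal p under 0.05 from limma against both CV and GF, 2 genes were higher, PSMD10 and PSMC3IP. PSMD10 (ENSDARG00000015628), an assembly chaperone of the regulatory particle, had 23.1, 25.2 and 27.5 FPKM in ZM and between 17.2 and 21.9 FPKM elsewhere. PSMA5 (ENSDARG00000003526), a subunit of the core ring named here after its values were seen, had 149, 165 and 164 FPKM in ZM and between 105 and 147 FPKM elsewhere. Both the 14 and the 12 genes include PSMC3IP (ENSDARG00000037892), which entered the list by its name and acts in meiotic recombination. It had 9.80, 9.58 and 11 FPKM in ZM and at most 8.93 FPKM elsewhere. The count of 14 depended on single samples and settings, with 3 without ZM 2, 22 without CV 2, 7 without CV 1, CV 3, GF 3 or ZM 3, 8 without GF 1 or GF 2, 7 with eBayes without trend and 6 with the same FPKM sum in every sample.

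Splicing genes had means in both directions, 60 higher and 81 lower in ZM. The median log2 difference was -0.08, near that of all genes, but it was -0.27 against CV and 0.14 against GF. Of 141 tested, 12 were higher and 9 lower at a nominal p under 0.05 from limma. The 12 became 21 without CV 2 and 5 without ZM 1 or ZM 2. The 9 became 14 without CV 1, 29 without CV 2, 6 without CV 3, 4 without GF 1, 2 without ZM 1, 3 without ZM 2 and 5 with CV and GF as 1 group of 6. All 3 ZM samples lay above the other 6 for 12 genes (8.51%, against 2.8% of all genes). They lay below for 1 (0.709%, against 0.868%). SNRPG (ENSDARG00000099667), a core protein of the spliceosome, had 257, 236 and 229 FPKM in ZM and between 157 and 203 FPKM elsewhere. SNRPD1 (ENSDARG00000011648), another core protein, had 226, 237 and 225 FPKM in ZM and at most 202 FPKM elsewhere. RBM24 (ENSDARG00000102995), a splicing regulator of muscle and lens, was below instead, with 13.0, 12.5 and 16.5 FPKM in ZM and between 17.3 and 21.3 FPKM elsewhere.

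**Figure D2:**
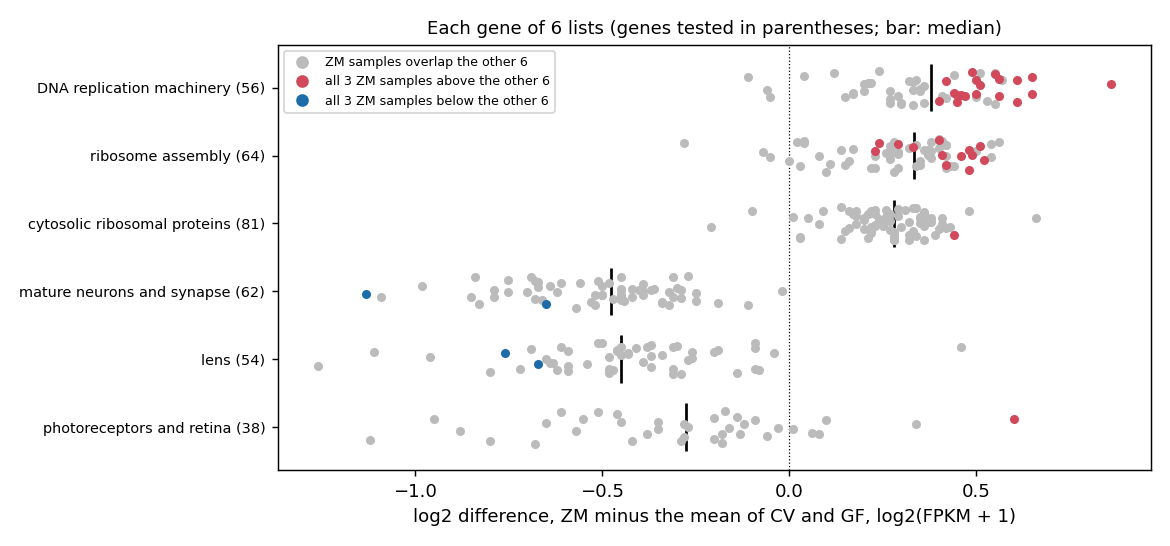
Log2 difference between ZM and the mean of CV and GF (horizontal axis, on log2(FPKM + 1)) for each gene tested of 6 gene lists. Points are genes, spread vertically at random within a list, coloured by whether all 3 ZM samples lay above (red) or below (blue) the 6 others, and bars are list medians. Nearly all replication and ribosome assembly genes lie above 0, with medians of 0.38 and 0.33, and all 62 synapse genes lie below 0, with a median of -0.48.

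Genes of the synapse had lower means in ZM without exception, yet few stood apart in every sample. Of 62 genes of mature neurons tested, 0 had a higher mean in ZM and 30 were lower at a nominal p under 0.05 from limma, against 4.41% of all genes. All 3 ZM samples lay below the other 6 for 2 (3.23%, against 0.868% of all genes). Its list median, as a log2 difference, was -0.48, and it was -0.58 against CV and -0.41 against GF. The list medians were -0.44 and -0.50 in ZM 1 and ZM 2 but -0.04 in ZM 3, which lay within the other samples (CV 1 at -0.05, GF 2 at -0.06 and GF 3 at -0.03). The 30 genes became 11 without ZM 1, 10 without ZM 2 and 18 without GF 1. In these bulk samples, fewer cells of a type and less RNA per cell cannot be told apart.

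The neurexin NRXN3 (ENSDARG00000043746), an adhesion protein of the presynaptic membrane, had 0.670, 1.93 and 1.28 FPKM in ZM, 5.20, 3.42 and 7.36 FPKM in CV and 3.86, 2.1 and 2.92 FPKM in GF. All ZM samples lay below the others, with ZM 2 close to GF 2. On the log2 scale the difference was -1.13 (SE 0.25, limma adjusted p = 0.547), and it was -1.45 against CV and -0.80 against GF. The active zone gene rims2a (ENSDARG00000101606), which holds synaptic vesicles ready for release, had 2.94, 3.25 and 4.09 FPKM in ZM and between 4.36 and 7.52 FPKM elsewhere. SNAP25 (ENSDARG00000058117) and atp1a3a (ENSDARG00000018259), chosen after their values were seen, show the more frequent pattern of this list. SNAP25, a part of the complex that fuses vesicles with the membrane, had 7.88 and 7.69 FPKM in ZM 1 and ZM 2 and 17.6 FPKM in ZM 3, above GF 2 (14.3 FPKM) and GF 3 (16.4 FPKM). The neuronal sodium pump subunit atp1a3a had 10.4, 9.94 and 22.9 FPKM in ZM and between 17.6 and 69.0 FPKM elsewhere. For both genes, ZM 3 lay within the range of the other groups.

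Among the genes named by the size of their difference, several outside the list are expressed in nerve or sensory cells. POU4F3 (ENSDARG00000006206), a transcription factor of hair cells in the ear and lateral line, had 0.355, 0.341 and 0.873 FPKM in ZM, 1.57, 1.69 and 2.99 FPKM in CV and 2.13, 1.68 and 0.943 FPKM in GF. All ZM samples were lowest, and ZM 3 was close to GF 3. ZM differed from the others by a log2 value of -0.88 (SE 0.22, limma adjusted p = 0.547). PROX1 (ENSDARG00000055158), a homeodomain factor of lens fibres, newborn neurons, liver and lymphatic vessels, had 9.15, 7.49 and 15.5 FPKM in ZM and between 15.7 and 27.8 FPKM elsewhere. The kainate receptor gene GRIK1 (ENSDARG00000040627) had 0.314, 0.239 and 0.673 FPKM in ZM and between 0.695 and 2.76 FPKM elsewhere. The olfactomedin gene OLFM2 (ENSDARG00000077847) had 5.16, 5.15 and 8.87 FPKM in ZM and at least 9.02 FPKM elsewhere. In all of these, ZM 3 was the highest ZM sample and lay at the edge of the other 6. POU4F3 and GRIK1 had ZM means of 0.523 and 0.409 FPKM, so they passed the limit of 1 FPKM through CV and GF.

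New neurons had a divided list. Of 48 genes tested, 11 were lower and 3 higher at a nominal p under 0.05 from limma, and 39 had a lower mean. As a log2 difference, the list median was -0.40, at -0.59 against CV and -0.12 against GF. The 3 higher genes were atoh7, STMN1 and atoh1b. atoh7 (ENSDARG00000069552), the factor that starts the formation of retinal ganglion cells, had 36.4, 26.9 and 25.4 FPKM in ZM and between 13.9 and 24.6 FPKM elsewhere. atoh1b (ENSDARG00000099564), a proneural factor of the hindbrain and ear, had 19.0 and 15.4 FPKM in ZM 1 and ZM 2 and 7.86 FPKM in ZM 3, which lay within the others. NEUROD1 (ENSDARG00000019566), which acts in cells that are becoming neurons, had 51.3 and 48.2 FPKM in ZM 1 and ZM 2, 109 FPKM in ZM 3 and between 84.1 and 131 FPKM elsewhere. STMN1, atoh1b and NEUROD1 were chosen after their values were seen. The 11 lower genes became 1 without ZM 1, 2 without ZM 2, 5 without GF 1, 18 without ZM 3 and 20 without CV 2. The 3 higher genes became 6 without CV 1, 5 without ZM 3 and 5 with a replicate block. Neural progenitor genes, the cells that come before, had 0 higher and 2 lower of 37 at that p. Their median was -0.18, at -0.33 against CV and 0.08 against GF. The 2 became 9 without CV 2, 5 without ZM 3, 3 without CV 1, 1 without GF 1 or ZM 2, 0 without ZM 1 and 5 with sample weights by group.

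The lens list had lower values over 53 of 54 genes. At a nominal p under 0.05 from limma 23 were lower and 0 higher, and the ZM samples lay below all others for 2 (3.70%, against 0.868% of all genes). On the log2 scale the list median difference was -0.45, but it was -0.16 against CV and -0.71 against GF. The list medians were -0.32, -0.40 and -0.09 in ZM, and CV 1 (-0.11) and CV 3 (-0.41) overlapped with them. The 23 genes became 14 without ZM 2, 38 without CV 3, 15 after median-of-ratios rescaling and 13 with CV and GF as 1 group of 6. Crystallin genes are near copies of each other, so reads may have been divided between them.

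The chaperone crystallin CRYAA (ENSDARG00000053502) had 33.2, 24.7 and 36.8 FPKM in ZM, 57.1, 55.3 and 39.2 FPKM in CV and 65.0, 54.6 and 54.0 FPKM in GF. All ZM samples were below, with CV 3 nearest to them. The log2 difference was -0.76 (SE 0.16, limma adjusted p = 0.547). crygm2d6 (ENSDARG00000073874), a gamma M crystallin of the fish lens, had 191, 175 and 146 FPKM in ZM and between 192 and 333 FPKM elsewhere. CRYBB1 (ENSDARG00000068507), a beta crystallin chosen after its values were seen, had 110, 94.0 and 234 FPKM in ZM, 756, 334 and 793 FPKM in CV and 152, 192 and 195 FPKM in GF. This gene separated CV from the sterilised groups and ZM from GF only in ZM 1 and ZM 2, so it differs from crygm2d6, which was highest in GF.

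In the retina, 38 genes were tested, of which 5 were lower and 1, atoh7, was higher at a nominal p under 0.05 from limma. Over the list, the median log2 difference was -0.27. The photoreceptor factor crx (ENSDARG00000011989), named after its values were seen, had 2.72, 3.84 and 8.47 FPKM in ZM, 22.1, 11.2 and 33.3 FPKM in CV and 7.50, 4.49 and 5.87 FPKM in GF. The CV samples lay above all others for this gene, and ZM 3 lay above GF. VSX1 (ENSDARG00000056292), a factor of bipolar cells chosen in the same way, had 55.0 and 64.1 FPKM in ZM 1 and ZM 2 and 143 FPKM in ZM 3, against 87.3 to 149 FPKM elsewhere. The 5 lower genes became 0 without ZM 1, 1 without ZM 2, 13 without ZM 3, 3 without CV 3 or GF 1 and 8 without CV 1 or CV 2. They became 2 at a minimum of 5 FPKM, 2 with CV and GF as 1 group of 6 and 8 with a replicate block.

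**Figure D3:**
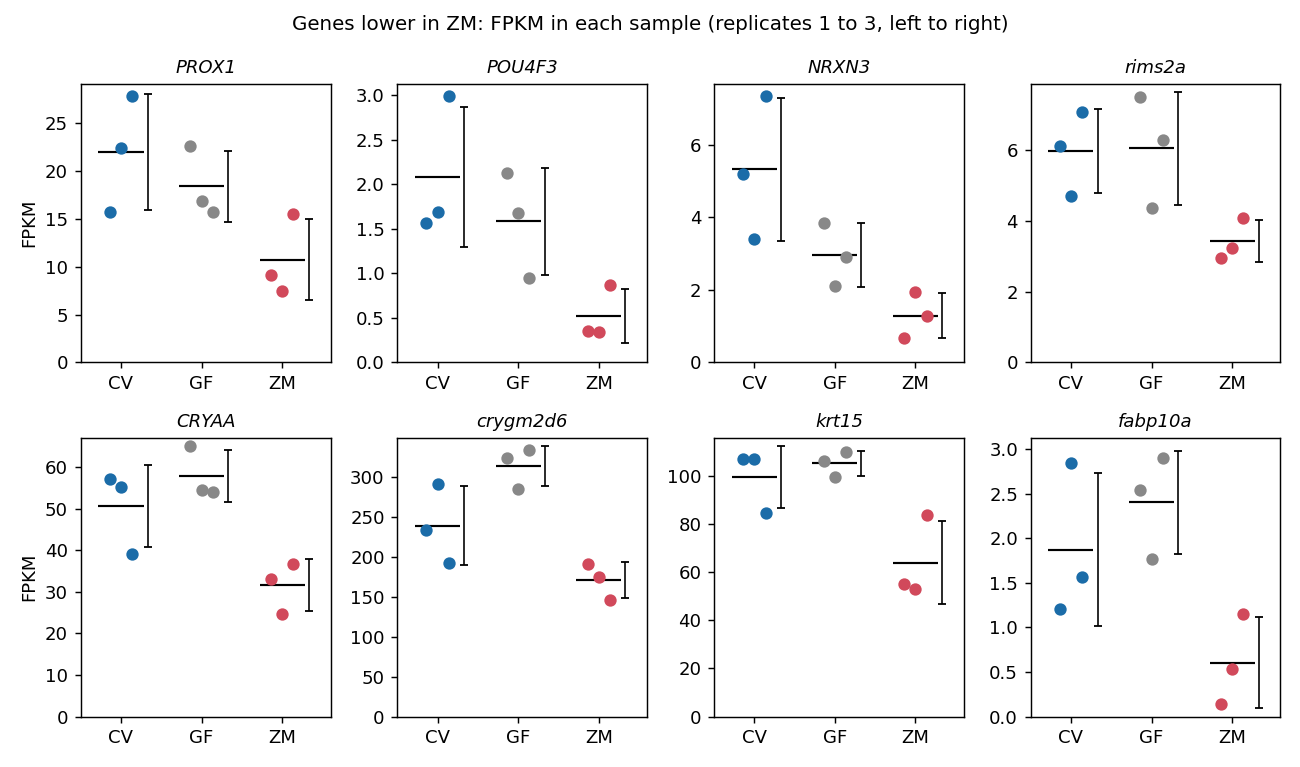
FPKM (vertical axes, starting at 0) of 8 genes that were lower in ZM, in the CV, GF and ZM samples. Points are samples in the order of their replicate numbers, horizontal lines are group means and bars beside them are ± 1 SD (n = 3). In each panel the 3 ZM points lie below the 6 others, and the ZM 3 point of PROX1, at 15.5 FPKM, lies almost at the lowest of the others, at 15.7 FPKM.

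Genes of other tissues were among those with the largest differences. The keratin krt15 (ENSDARG00000036840) had 55.0, 53.2 and 83.8 FPKM in ZM and between 84.6 and 110 FPKM elsewhere, whereas the 57 skin genes tested had 4 higher and 3 lower at a nominal p under 0.05 from limma, and 5 lower with the same FPKM sum in every sample. The liver fatty acid binding protein fabp10a (ENSDARG00000038439) had 0.141, 0.530 and 1.15 FPKM in ZM and between 1.21 and 2.90 FPKM elsewhere. The urate oxidase gene uox (ENSDARG00000007024), an enzyme of liver peroxisomes, had 0.242, 0.487 and 0.813 FPKM in ZM and between 0.847 and 2.14 FPKM elsewhere. Both liver genes had low values in every sample, and the other genes of the liver and yolk list did not follow them, with 0 higher and 1 lower of 39, fabp10a itself. The ZM means of fabp10a and uox were 0.608 and 0.514 FPKM, so they passed the limit of 1 FPKM through CV and GF. MARCHF8 (ENSDARG00000062489), a ubiquitin ligase of membrane proteins, had 4.29, 5.83 and 2.96 FPKM in ZM, 8.70, 11.1 and 8.80 FPKM in CV and 11.3, 8.53 and 7.42 FPKM in GF. Its ZM samples lay clearly below the others, and ZM 3 was the lowest. ZM differed from the others by a log2 value of -0.96 (SE 0.20, limma adjusted p = 0.547). DEF8 (ENSDARG00000068208) had 13.8, 13.2 and 13.1 FPKM in ZM and between 15.7 and 28.8 FPKM elsewhere.

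The embryonic beta globin hbbe3 (ENSDARG00000038147) had the largest difference among the genes with a nominal p under 0.05 against both groups and all ZM samples above the other 6, when the nearer of CV and GF is taken. It had 266, 418 and 332 FPKM in ZM, 210, 221 and 127 FPKM in CV and 104, 211 and 236 FPKM in GF, a log2 difference of 0.91 (SE 0.28, limma adjusted p = 0.547). The rest of the red blood cell list did not stand apart. Of 24 genes tested, 3 were higher and 1 was lower at a nominal p under 0.05 from limma, and the alpha globin hbae3 (ENSDARG00000079305), named after its values were seen, had 1420, 1770 and 1710 FPKM in ZM and between 736 and 1710 FPKM elsewhere. CRABP1 (ENSDARG00000035904), a retinoic acid binding protein of the hindbrain and neural crest, had 57.7, 46.6 and 47.8 FPKM in ZM and between 28.6 and 41.3 FPKM elsewhere. The chaperone gene dnaja (ENSDARG00000051762) had 18.1, 15.9 and 13.3 FPKM in ZM and between 8.40 and 11.6 FPKM elsewhere.

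Responses that an animal could mount to foreign compounds, microbial products or nutrients in an extract were looked at through listed target genes. No gene of these lists passed the adjusted test of ZM against both groups. Targets of the aryl hydrocarbon receptor, which senses aromatic compounds, some of them made by gut bacteria, gave 4 higher and 1 lower of 14 at a nominal p under 0.05 from limma, with a median log2 difference of 0.20. The 4 became 1 without ZM 2, 2 without ZM 3, 2 at a minimum of 5 FPKM, 2 with the same FPKM sum in every sample, 6 without ZM 1 and 7 after quantile normalization. The higher genes were CYP1A1, FOXQ1, cyp1c1 and cyp1c2, of which the last 3 were named after their values were seen.

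CYP1A1 (ENSDARG00000098315), the gene cyp1a of the zebrafish, encodes the hydroxylase that is the standard target of this receptor. It had 38.5, 124 and 126 FPKM in ZM, 3.31, 38.5 and 5.74 FPKM in CV and 5.21, 16.2 and 9.12 FPKM in GF. ZM 2 and ZM 3 were far above all others, and ZM 1 and CV 2 were equal after rounding, with CV 2 the higher. The mean was 96.0 ± 49.8 (SD, n = 3) in ZM and 13.0 ± 13.3 (SD, n = 6) in the other samples together. The log2 difference was 3.04 (SE 0.66, limma adjusted p = 0.547), at 3.03 against CV and 3.06 against GF. It lay between 2.72 and 3.60 when a sample was left out. With the block in the ZM and GF samples alone, the difference from GF was 3.06 (SE 0.19, limma adjusted p = 0.0387). The lowest ZM value, 38.5 FPKM, was above the highest GF value, 16.2 FPKM, so ZM was higher under any pairing. No source states a pairing by number. ZBTB18 (ENSDARG00000028228), a transcriptional repressor and no member of this list, had an adjusted p of 0.0454 from limma in that fit. Its values were 15.4, 14.7 and 8.09 FPKM in ZM, 17.0, 16.5 and 17.2 FPKM in CV and 2.78, 2.6 and 1.86 FPKM in GF, so ZM lay between CV and GF rather than apart from both.

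FOXQ1 (ENSDARG00000030896) had 4.12, 7.46 and 7.41 FPKM in ZM and between 0.254 and 3.75 FPKM elsewhere, a log2 difference of 1.03 (SE 0.36, limma adjusted p = 0.547), with CV 3 the far lowest sample. The hydroxylase cyp1c1 (ENSDARG00000101195) had 9.08, 16.9 and 15.2 FPKM in ZM and between 4.33 and 10.6 FPKM elsewhere, with ZM 1 inside this range. Its neighbour in the family, cyp1c2 (ENSDARG00000101789), had 3.23, 4.49 and 4.68 FPKM in ZM and between 2.15 and 3.47 FPKM elsewhere. In CYP1A1, FOXQ1, cyp1c1 and cyp1c2 ZM 1 was the lowest ZM sample, whereas it had the highest median of the replication list.

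Of the oxidative stress genes, 2 of 28 were higher and 0 lower at a nominal p under 0.05 from limma, and 6 were higher without CV 2. nfe2l2b (ENSDARG00000089697), a relative of Nrf2, the transcription factor of the oxidative stress response, had 1.59, 1.95 and 1.73 FPKM in ZM and between 0.533 and 1.15 FPKM elsewhere. Its mean was 0.682 FPKM in CV and 0.891 FPKM in GF, so it passed the limit of 1 FPKM only through ZM. Thioredoxin (TXN, ENSDARG00000031435), named after its values were seen, had 598, 677 and 591 FPKM in ZM and between 332 and 548 FPKM elsewhere. The target HMOX1 (ENSDARG00000027529), in contrast, had 11.5, 12.5 and 5.73 FPKM in ZM and between 4.67 and 12.3 FPKM elsewhere. Its samples overlapped (log2 difference 0.26, adjusted p = 0.787 from limma).

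Sterol synthesis genes had 5 higher and 0 lower of 31 at a nominal p under 0.05 from limma. All 3 ZM samples lay above the other 6 for 2 (6.45%, against 2.8% of all genes), and 0 were higher at that p against both CV and GF. These 2 were EBP (ENSDARG00000046098) and NSDHL (ENSDARG00000099315), late enzymes of the path named after their values were seen. The 5 became 3 without CV 3, GF 3, ZM 1, ZM 2 or ZM 3, 3 with the same FPKM sum in every sample and 2 at a minimum of 5 FPKM. EBP had 3.45, 4.02 and 4.38 FPKM in ZM and at most 3.08 FPKM elsewhere. HMGCS1 (ENSDARG00000103025), the preset response gene for this path, had 3.16, 3.66 and 4.49 FPKM in ZM and between 2.0 and 5.79 FPKM elsewhere. Amino acid shortage and unfolded protein genes had 1 higher and 0 lower of 40, and 6 higher without ZM 1. Their preset response gene ASNS (ENSDARG00000016375), asparagine synthetase, had 15.1, 22.9 and 7.91 FPKM in ZM and between 6.61 and 15.2 FPKM elsewhere.

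Innate immune genes had 0 higher and 2 lower of 29 at a nominal p under 0.05 from limma, with a median of 0.02. Of the 63 genes of this list, 34 were below the limit for testing, 2 of which, tnfa and il6, were listed at 0 in all 9 samples. The cytokine il1b (ENSDARG00000098700) was below the limit for testing, at 0.107, 0.162 and 0.245 FPKM in ZM and between 0.0722 and 0.202 FPKM elsewhere. Heat shock and chaperone genes had 4 higher and 0 lower of 28 at a nominal p under 0.05 from limma. The 4 became 7 after median-of-ratios rescaling and 1 without ZM 1. The chaperone HSPD1 (ENSDARG00000056160) had 124, 139 and 136 FPKM in ZM and between 93.9 and 119 FPKM elsewhere. The heat shock genes hsp70l (ENSDARG00000055723) and hsp70.3 (ENSDARG00000021924) had log2 differences of -0.32 (adjusted p = 0.710 from limma) and 0.13 (adjusted p = 0.904 from limma). For hsp70.3, the CV samples (10.8, 3.97 and 7.31 FPKM) lay above the GF samples (2.35, 1.95 and 1.54 FPKM), and the ZM samples had 6.72, 4.01 and 2.73 FPKM. ZM 1 and ZM 2 lay within the range of CV, and ZM 3 lay between CV and GF. Immediate early genes had 0 higher and 4 lower of 32 at a nominal p under 0.05 from limma, and 0 lower without ZM 1. FOS (ENSDARG00000031683), an immediate early gene, had 3.07, 2.69 and 1.55 FPKM in ZM and between 1.28 and 2.64 FPKM elsewhere. The p53 target cdkn1a (ENSDARG00000076554), an inhibitor of the cell cycle, had 3.08, 2.69 and 1.93 FPKM in ZM and between 0.892 and 3.77 FPKM elsewhere. AXIN2 (ENSDARG00000100149), a feedback inhibitor of Wnt signalling, had 13.0, 12.8 and 14.1 FPKM in ZM, within the range of 10 to 25.8 FPKM of the others (log2 difference -0.16, adjusted p = 0.773 from limma). Of the 36 Wnt targets, 1 was higher and 1 lower at a nominal p under 0.05, and 5 were lower without CV 2. A lower mean in ZM was found for 29 of them, and the list median was -0.30 against CV and 0.06 against GF. Clock genes had 0 higher and 3 lower of 30, with a median of -0.18. The 3 became 6 without CV 1 and 5 without ZM 3, but 1 without CV 3 and 0 without GF 1, ZM 1 or ZM 2. Both genes with the name PER1 were below the limit for testing.

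Markers of other cells in the heads were followed across the samples, and their part in the results above was not tested. All 9 samples expressed brain, eye, lens, skin and muscle markers. The sums below cover only the genes tested of each list. The summed FPKM of the muscle list was 31521 to 43461 in ZM, 38038 to 41241 in CV and 27976 to 50641 in GF. The summed lens FPKM was 14129 to 17554 in ZM, 14750 to 21539 in CV and 23587 to 26762 in GF. The summed level of mature neuron genes was 795 to 1050 FPKM in ZM, 1033 to 1393 FPKM in CV and 1081 to 1517 FPKM in GF. The highest ZM sum thus overlapped with CV, and all ZM sums were below those of GF. Macrophage, microglia and neutrophil genes had 19 of 21 means higher in ZM, 3 at a nominal p under 0.05 from limma, with list medians of 0.11, 0.14 and 0.10 in ZM and at most 0.04 elsewhere. The 3 became 5 without ZM 3, 5 after median-of-ratios rescaling, 6 after quantile normalization and 5 with a replicate block. They became 1 without GF 2, 1 with the same FPKM sum in every sample and 1 at a minimum of 5 FPKM. Without CV 1, CV 3, GF 1, GF 3, ZM 1 or ZM 2 they became 2. Of the 46 genes of this list, 25 were below the limit for testing. With all genes above 0 in any sample, 30 of 46 means were higher and 16 lower. The median log2 difference was then 0.04 instead of 0.24. One macrophage gene with the name MFAP4 (ENSDARG00000088745), named after its values were seen, had 26.7, 19.5 and 25.9 FPKM in ZM and between 11.9 and 20.9 FPKM elsewhere. The 20 gut and pancreas genes tested, which the adult extract could have carried as RNA, summed to 282 to 328 FPKM in ZM, 155 to 288 FPKM in CV and 208 to 304 FPKM in GF. Of the 57 genes of that list, 37 were below the limit for testing, 1 of which, sycn.1, was listed at 0 in all 9 samples. Of the 20 tested, 3 were higher at a nominal p under 0.05, with a median of 0.03. The intestinal peptidase ANPEP (ENSDARG00000097285) had 2.95, 2.54 and 2.82 FPKM in ZM and between 1.32 and 2.26 FPKM elsewhere. Cartilage genes had 0 higher and 6 lower of 31 and a median of -0.26, at -0.61 against CV and 0.02 against GF. The 6 became 1 without ZM 1, 0 without ZM 2, 13 without ZM 3, 3 without GF 3, 10 with a replicate block and 3 at a minimum of 5 FPKM or with all genes above 0. MATN1 (ENSDARG00000030215), a cartilage matrix protein named after its values were seen, had 0.742 and 0.8 FPKM in ZM 1 and ZM 2 but 12.9 FPKM in ZM 3, inside the range of 2.32 to 25 FPKM of the others.

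**Figure D4:**
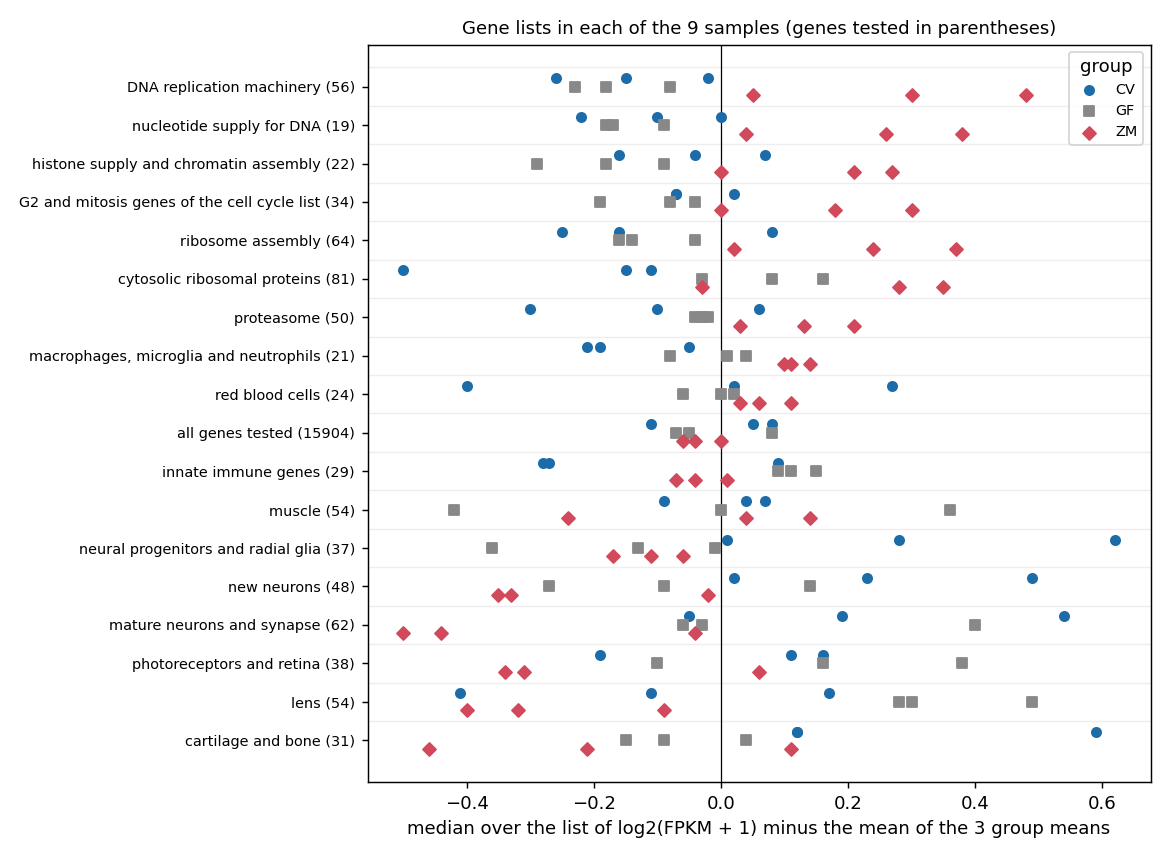
Median over each gene list of log2(FPKM + 1) relative to the mean of the 3 groups (horizontal axis) in each of the 9 samples, with CV as circles, GF as squares and ZM as diamonds. The replication and nucleotide lists have all ZM samples to the right of the others, and the mature neuron list has ZM 1 (-0.44) and ZM 2 (-0.50) to the left of all others and ZM 3 (-0.04) among them.

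In the replication, ribosome assembly, mature neuron, retina and cartilage lists, the medians of ZM 1 and ZM 2 were farther from the other groups than that of ZM 3. In the replication list ZM 3 (0.05) was still outside the range of CV and GF. In the ribosome assembly, histone supply, cell cycle and ribosomal protein lists it was inside that range. This was also so in the mature neuron, new neuron, retina, lens and cartilage lists. Without ZM 3, the median log2 difference was 0.51 for replication, 0.44 for ribosome assembly, -0.60 for mature neurons and -0.54 for the lens. The smallest adjusted p from limma was then 0.173, so 0 genes passed 0.05.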

How the data were processed

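RNA-seq of 9 head samples (3 CV, 3 GF and 3 ZM) was used. Per the submitters' processing notes, reads were checked with FastQC 0.11.8, mapped with HISAT2 2.1.0 to GRCz11 and quantified with StringTie 1.3.4d. The authors deposited FPKM for 32520 Ensembl genes, without further scaling. The authors' own tests used DESeq2 1.29.13 on HTSeq 0.11.0 counts, which were not used here. The table holds no counts, and the study's methods give 1 range of reads for all samples, so no counting interval is given.

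The 15904 genes averaging at least 1 FPKM were tested on log2(FPKM + 1) with limma 3.58.1 in R 4.3.3 (lmFit, eBayes with trend, a mean per group, no block, two-sided, Benjamini-Hochberg adjustment, threshold 0.05). The contrast was ZM minus the mean of CV and GF. The fit was checked on simulated data. Deviations of same-numbered samples from their group means correlated above 0.1 in each of the 3 pairs of ZM and GF, but not in each pair with CV, so a block was added for ZM against GF alone. No source says whether the 3 samples of a group came from separate clutches, so p-values measure the spread between these samples.

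Symbols came from a name table (29201 of 32520 IDs), which often gives shared vertebrate names without a or b suffixes. Names of gene lists were matched to it directly, by that shared name or by a RefSeq synonym that pointed to 1 ID (table of GRCz12tu). Genes were named if all 3 ZM samples lay on the same side of the other 6, with a nominal (unadjusted) p under 0.05 against CV and against GF. From these the text draws on the 12 in each direction with the largest smaller difference, the 3 with the smallest p, up to 6 in each list, and the preset response genes. The preset gene mt2 had no match. Their selection uses the values reported, so those values are a description. Members, lists and tests were chosen with earlier results of these data known. Alternatives were a pseudocount of 0.1, 2 filters (at least 5 FPKM, and all genes above 0), 3 rescalings, a block for the replicate number, CV and GF as 1 group, sample weights by group, eBayes with no trend, and omission of each sample. Comparisons of the authors, other experiments of the study and genome coordinates were not used here.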

Additional observations from a re-analysis of the deposited data

How the results depend on the processing

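At an adjusted p under 0.05 from limma, 0 genes were called in either direction under each of the 19 alternatives, with a smallest adjusted p between 0.173 and 0.957. The number of genes with all ZM samples above the other 6 (446) was 289 with the same FPKM sum in every sample and between 468 and 1289 when a sample was left out. The number below (138) was 57 at a minimum of 5 FPKM, 318 with all genes above 0 in any sample and between 147 and 1535 when a sample was left out. Fewer samples have to be separated when a sample is left out, so these counts can only grow for a fixed set of genes. The genes higher against both groups at a nominal p under 0.05 (195) were between 76 and 408, and the genes lower (76) between 20 and 419, when a sample was left out. The latter were 147 with all genes above 0 in any sample. Without ZM 3 the 4 counts were 1289, 1535, 408 and 419, and the cause was not tested. Of the genes named, hsp70.3 (0.13) lay between -0.149 and 0.374, FOS (0.09) between -0.045 and 0.292 and cdkn1a (0.14) between -0.011 and 0.311 when a sample was left out, and no other named gene changed direction under these alternatives.

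With the replicate number as a block, 273 genes were higher and 108 lower against both groups, and 0 were called at an adjusted p under 0.05. Deviations of samples with the same number from their group means correlated at 0.409, 0.466 and 0.616 between ZM and GF, at 0.0624, 0.0605 and 0.488 between ZM and CV and at -0.058, 0.146 and 0.316 between CV and GF. Every ZM sample correlated best with its own number among the GF samples, but not among the CV samples. No source states that samples were paired by number, and with 3 samples per group these correlations cannot establish it. Against GF, 542 genes were higher and 580 lower at a nominal p under 0.05 from limma with the block over all 9 samples, with 0 at an adjusted p under 0.05. With the block in the ZM and GF samples alone there were 1538 and 1176, with 2 higher and 0 lower at an adjusted p under 0.05, and 993 and 667 without it.

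The table holds FPKM without counts, and depth is given in the methods as 1 range for all samples, so no limit for low genes was computed. FPKM summed to between 587431 and 705494 per sample. An exact permutation test of 3 against 6 samples cannot go below 0.0238, and genes chosen for having all ZM samples on the same side reach this value by their choice, so it is not given for them. The extract, the sterilisation and the rearing differ between groups as described, and the 3 ZM samples, of which ZM 3 lay nearest to the others, carry every result.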
